A study of Rattus norvegicus with 60 samples.

Results

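The genes described here encode acute phase, complement and coagulation proteins, which the liver secretes into the blood plasma. They were taken from a list of 41 genes: 10 acute phase proteins, 16 complement genes and 15 genes of coagulation and fibrinolysis. A gene counted as measured when at least 1 array probe set named it and no other gene, and 36 of the 41 were measured, among 14217 genes on the array. A gene with several probe sets was represented by its brightest, judged by the mean across arrays. C2 and Cfb were measured only by probe sets that name both, Kng1 only by a probe set that also names Kng2 and Kng2l1, and no probe set in the annotation used here names F7 or F11.

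Acute phase proteins are plasma proteins whose synthesis in hepatocytes changes in inflammation, when interleukin 6 acts through STAT3 and interleukin 1 acts through NF-kB and C/EBP factors. Complement is a cascade of plasma proteases that marks and lyses microbes. It starts from C1r, C1s or the MASP proteases, passes through C3 and C5, and ends in a pore whose components include C5b, C6, C8 and C9. Coagulation is a second cascade, in which factors XII, IX, X and V lead to thrombin, which cuts fibrinogen to fibrin, while plasmin dissolves the clot. Hepatocytes are the main source of most of these proteins, and the liver's other cells make some of them.

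The rats were Wistar (Han-Wistar) animals of 8 weeks, and RNA was taken separately from hepatocytes (HC) and from cells labelled mesenchymal (MC), with 30 arrays of each. Phenobarbital (PB), a barbiturate that induces drug-metabolising enzymes, was given at 50 mg/kg to males, by 1 gavage for 24 h or in drinking water for 14 d, with water as the vehicle named in the labels. Cyproterone acetate (CPA), a steroidal antiandrogen and progestin, was given by gavage at 100 mg/kg to females, once for 24 h or on 6 consecutive days, with corn oil (10 ml/kg) as vehicle. In each fraction, corn oil at 24 h had 5 arrays and a separate 24 h oil group with the code CO_Co, whose meaning the labels leave unstated, had 4. Every other group had 3: corn oil for 6 d, water for 24 h or 14 d, and each compound at its early and late time. The protocol text names oil-treated rats as the controls without mentioning water; the sample labels were followed. The compounds were given in rats of different sex and with different vehicles, which cannot be told apart from the choice of compound. The labels do not say whether replicates were separate animals, so p-values measure the spread between arrays.

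Values are log2 expression values, a difference of 1 being a factor of 2, and a gene was called changed at an adjusted p under 0.05 over all 14217 genes in limma. A level is compared only with the same probe set on other arrays, since probe sets differ in brightness. The highest vehicle mean was 12.88, for Fga, and 0 of the 36 genes had a vehicle mean above 13, near the top of a scale whose array maxima lay between 13.172 and 13.899. The fraction labels were checked with marker genes on 18 vehicle arrays each: the mean of 16 hepatocyte markers was 11.57 to 11.86 in HC and 6.55 to 10.59 in MC, while 12 Kupffer cell and macrophage markers averaged 3.35 to 5.91 in HC and 9.45 to 11.11 in MC. Sinusoidal endothelial markers averaged 3.39 to 4.81 in HC and 9.02 to 10.31 in MC, and stellate cell markers 2.85 to 4.03 in HC and 4.47 to 6.18 in MC. The macrophage, endothelial and stellate marker means were thus all higher on every MC array than on any HC vehicle array, and of these 4 lists the hepatocyte markers varied most between MC arrays. The third replicates of the 24 h water and PB groups, 4 arrays that the labels call female although the treatment protocol gives males, had the Y-linked Eif2s3y at 6.94 to 7.26 and Xist at 0.86 to 2.11, as the arrays labelled male did (5.88 to 7.41 and 0.86 to 1.77).

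Promoters of 4 genes whose response is described below are shown: Orm1, the only member called higher in HC after CPA; Hpx, lower after 1 dose of CPA but not after 6; and C5 and C6, the complement genes with the largest falls at the respective times. Each is the 250 bases before the gene's start in RefSeq, build GRCr8, on the gene's strand, and capitals mark matches to the motifs below. Orm1 lies at chr5:81788259-81788508 (plus strand), Hpx at chr1:169352156-169352405 (minus), C5 at chr3:38759469-38759718 (minus) and C6 at chr2:55573383-55573632 (plus).
Orm1: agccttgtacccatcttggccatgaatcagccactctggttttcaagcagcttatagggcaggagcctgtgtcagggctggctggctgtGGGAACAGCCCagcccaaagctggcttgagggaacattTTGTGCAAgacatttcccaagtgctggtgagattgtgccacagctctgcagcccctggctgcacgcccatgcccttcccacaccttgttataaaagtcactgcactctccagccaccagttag
Hpx: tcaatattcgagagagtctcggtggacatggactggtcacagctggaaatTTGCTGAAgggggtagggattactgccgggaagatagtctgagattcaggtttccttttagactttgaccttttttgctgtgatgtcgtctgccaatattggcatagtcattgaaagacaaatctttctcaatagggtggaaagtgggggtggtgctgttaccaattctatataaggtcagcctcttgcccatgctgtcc
C5: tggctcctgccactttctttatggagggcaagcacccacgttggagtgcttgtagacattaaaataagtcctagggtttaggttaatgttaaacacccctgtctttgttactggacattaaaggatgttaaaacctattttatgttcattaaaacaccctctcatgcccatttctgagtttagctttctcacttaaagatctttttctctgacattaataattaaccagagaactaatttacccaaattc
C6: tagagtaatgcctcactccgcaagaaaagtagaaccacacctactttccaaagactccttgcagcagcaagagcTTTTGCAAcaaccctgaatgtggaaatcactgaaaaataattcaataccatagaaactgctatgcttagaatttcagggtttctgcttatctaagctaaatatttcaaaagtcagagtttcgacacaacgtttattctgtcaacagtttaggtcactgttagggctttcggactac
The motifs were searched on both strands in 33465 RefSeq promoters, among which 29 of the 36 genes had an entry. The C/EBP type motif TTGCNNAA was in 14 of the 29 (48.3%) and in 9.2% of all promoters, and in these windows Orm1, Hpx and C6 each hold 1 match, starting 123, 200 and 176 bases before the start. The STAT motif TTCNNNGAA was in 7 of 29 (24.1%, against 7.7% of all), including Fga, Fgb, Serpina3n and Itih4. The NF-kB type motif, GGG and CC with 5 bases of any kind between them, was in 10 of 29 (34.5%, against 42.3%); the capitals GGGAACAGCCC in Orm1 are a pair of overlapping matches to it. The HNF1 motif, GTTAAT and ATTAAC around 1 base of any kind, was in 0 of the 29 and in 1 of all promoters. A match says only that these letters are in the window. Some members lie side by side in the annotation, with no other protein-coding gene between them: Itih4 and Itih3, the fibrinogen genes Fgg, Fga and Fgb, C1r and C1s, and C8b and C8a.

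Without treatment, 35 of the 36 genes were higher in HC than in MC, with both vehicles. In corn oil at 24 h, 39.1% of all genes were higher in HC and 31.1% lower; in water at 24 h the shares were 32.7% and 24.4%. The median difference, HC minus MC, in corn oil was 3.97 for the acute phase proteins, 4.30 for complement and 4.74 for coagulation, against 0.13 over all genes. Every HC array lay above every MC array for 35 genes with either vehicle, as for 25.5% of all genes in corn oil and 38% in water. In bulk samples, fewer cells of a type and less RNA per cell cannot be told apart.

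**Figure D1:**
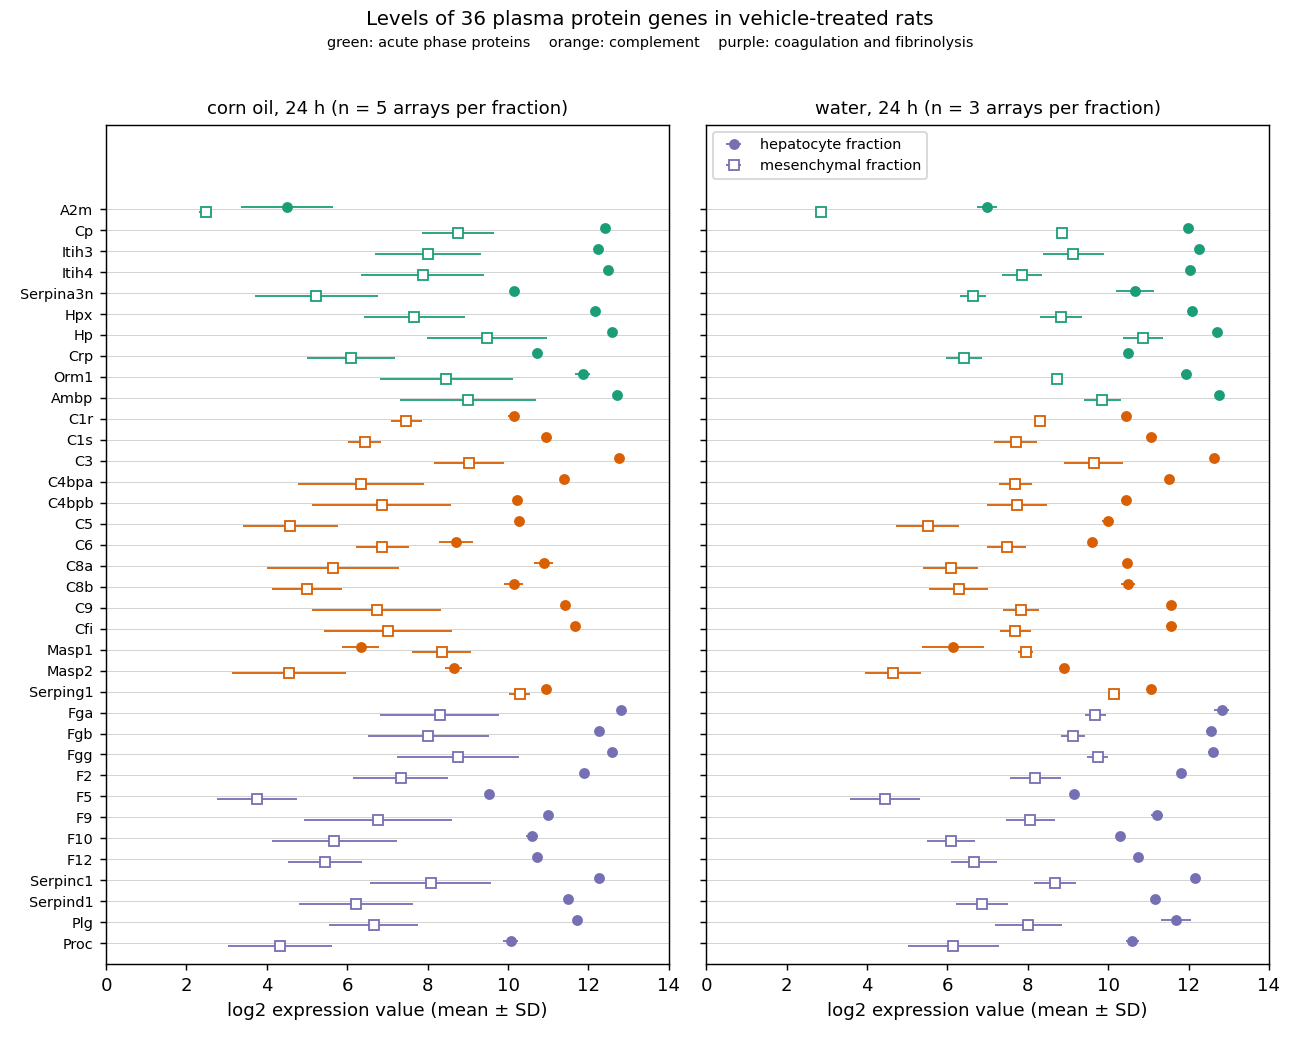
Mean log2 expression value ± SD of the 36 genes in HC (filled circles) and MC (open squares), in corn oil at 24 h (left, 5 arrays per fraction) and water at 24 h (right, 3 arrays). In both panels 35 genes lie to the right in HC and Masp1 lies to the left, and the MC bars are wider than the HC bars for all genes but A2m in corn oil.

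The largest difference in corn oil was that of F5, coagulation factor V, the cofactor of factor Xa. F5 read 9.50, 9.44, 9.43, 9.57 and 9.67 on the HC arrays and 2.24, 3.59, 3.82, 5.02 and 4.11 on the MC arrays, a 54.3-fold difference (5.76 ± 0.39, SE; adjusted p = 5.56e-18). Every HC array lay above every MC array. Proc, the anticoagulant protein C, was 53.6-fold higher in HC, and C5, whose cleavage starts the lytic pore, 51.5-fold. On the lowest MC array all of these genes lay under the array median (3.25 to 3.44 over the 60 arrays), near background, so these folds may be lower bounds.

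Masp1, a protease that starts the lectin pathway of complement, was the exception. Its main probe set read 6.44, 6.38, 6.99, 5.81 and 6.04 in HC and 9.50, 8.37, 7.81, 7.63 and 8.45 in MC with corn oil, a difference of -2.02 ± 0.30 (SE; adjusted p = 6.97e-08), and the groups did not overlap. With water the difference was -1.81 ± 0.38 (adjusted p = 8.55e-05). The other probe sets of Masp1 went the other way, at 1.12 and 0.58 higher in HC with corn oil and 1.21 and 1.08 higher with water, so the direction holds for 1 of its 3 probe sets. The smallest difference among the 35 was that of Serping1, the C1 inhibitor, which was 0.66 ± 0.16 higher in HC with corn oil and 0.91 ± 0.21 with water.

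A2m, alpha-2-macroglobulin, a broad protease inhibitor and a classical acute phase protein of the rat, differed between vehicle groups of HC. Its mean was 4.50 ± 1.15 (SD, n = 5) in corn oil at 24 h, 4.96 ± 0.79 (n = 4) in CO_Co, 3.82 ± 0.67 (n = 3) in corn oil at 6 d, 6.97 ± 0.25 (n = 3) in water at 24 h and 5.21 ± 0.46 (n = 3) in water at 14 d. The water and oil groups are of different sex, and sex and vehicle cannot be told apart. Between CO_Co and the other corn oil group, limma called 0 of the 36 genes in HC (0.0703% of all genes) and 0 in MC (0%), with 1 and 0 of the 36 at an unadjusted p under 0.05.

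After 1 dose of CPA, most of these genes fell in the hepatocyte fraction. At 24 h, 32 of 36 were lower and 0 higher, where 11.7% of all genes were called lower and 22.5% higher. The 32 were 8 of 10 acute phase proteins, 12 of 14 complement genes and all 12 measured genes of coagulation and fibrinolysis. Their falls ran from 1.25-fold to 4.16-fold, the latter a lower bound for A2m, and the median change of all 36 was -0.90, against -0.01 over all 14217 genes. Every CPA array lay below every corn oil array for 32 genes, among them Masp2, which was not called, and not C6, which was; this held for 13.5% of all genes.

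**Figure D2:**
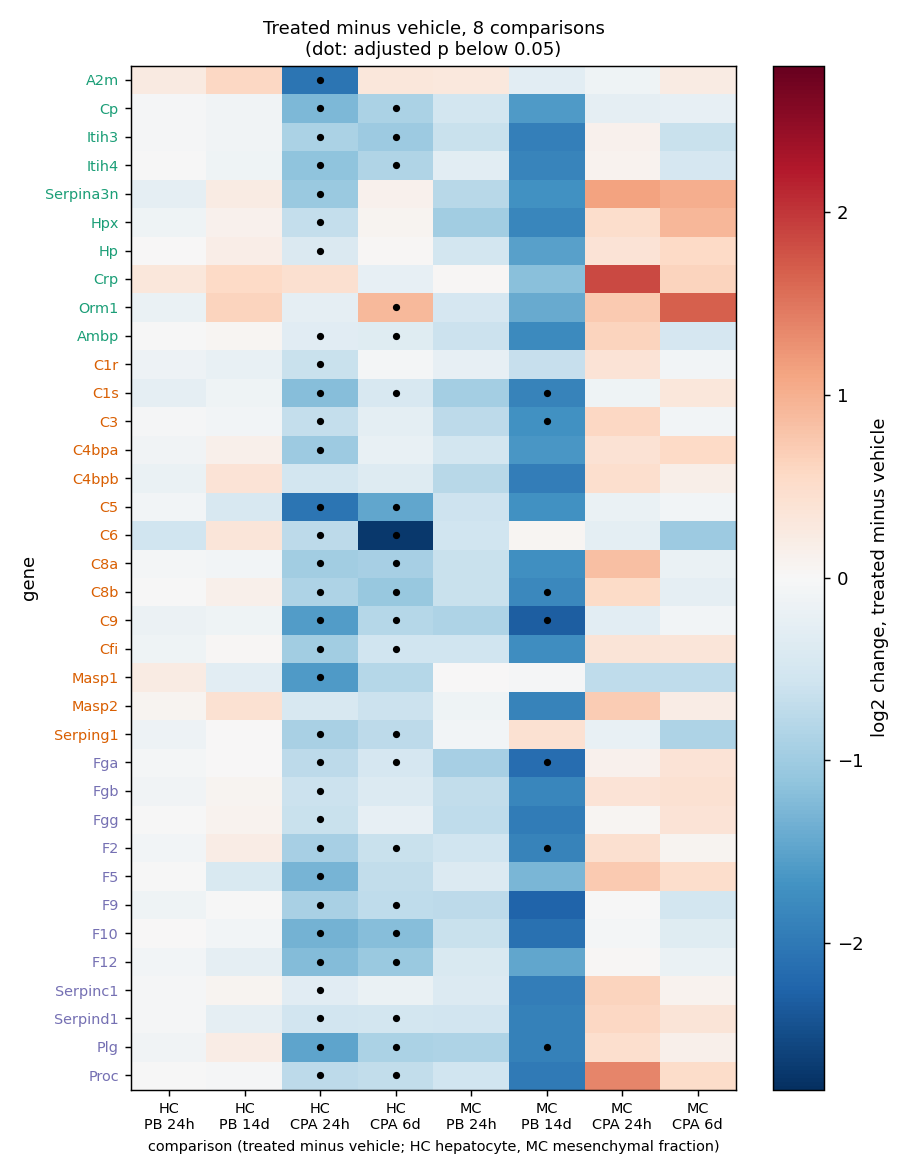
Log2 change, treated minus vehicle, of the 36 genes (rows, coloured by role: green acute phase, orange complement, purple coagulation and fibrinolysis) in 8 comparisons (columns), blue for lower and red for higher. Dots mark an adjusted p below 0.05: 32 in HC after CPA at 24 h, 21 at 6 d, 7 in MC after PB at 14 d and 0 in the other 5 columns.

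Among the acute phase proteins, A2m had the largest fall in the HC fraction. A2m read 3.39, 4.45, 3.96, 4.29 and 6.43 on the corn oil arrays and 2.65, 2.48 and 2.22 on the CPA arrays, at least 4.16-fold lower (-2.06 ± 0.53, SE; adjusted p = 0.00336). The CPA values lay under the array medians and at the level A2m has in MC (2.16 to 2.70 with oil, CO_Co included, or CPA at 24 h), so the fold is a lower bound. All CPA values lay below the lowest oil value, and the oil arrays themselves spread widely. Cp, ceruloplasmin, the copper-carrying ferroxidase of plasma, read 12.39, 12.39, 12.35, 12.46 and 12.44 against 11.41, 10.91 and 11.12 (-1.25 ± 0.11; adjusted p = 3.73e-09). The oil arrays of Cp lay within a narrow band and the CPA arrays well under it.

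Itih4, an inter-alpha-trypsin inhibitor heavy chain, read 12.40, 12.50, 12.38, 12.52 and 12.62 in corn oil and 11.70, 11.17 and 11.22 after CPA (-1.12 ± 0.13; adjusted p = 2.69e-07). Its neighbour Itih3 fell by 0.89 on the log2 scale (adjusted p = 1.74e-06). Serpina3n, a serine protease inhibitor of the antichymotrypsin type, read 10.05, 10.16, 10.29, 10.05 and 10.16 against 9.45, 8.83 and 9.04 (-1.04 ± 0.20; adjusted p = 0.000127). Neither Itih4 nor Serpina3n had overlapping groups. The scavengers of free heme and haemoglobin fell less: Hpx, hemopexin, by 0.67 and Hp, haptoglobin, by 0.40 on the log2 scale. Ambp, the precursor of alpha-1-microglobulin and bikunin, fell by 0.32. C-reactive protein (Crp, 0.44 ± 0.21, adjusted p = 0.114) and alpha-1-acid glycoprotein (Orm1, -0.26 ± 0.17, adjusted p = 0.259) did not pass the test.

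Complement genes fell from the initiating proteases to the pore. C5 read 10.21, 10.20, 10.19, 10.33 and 10.40 in corn oil and 8.80, 7.46 and 8.40 after CPA, 4.12-fold lower (-2.04 ± 0.20; adjusted p = 1.97e-08). The lowest oil array stood more than 1 log2 unit above the highest CPA array. Masp1 read 6.44, 6.38, 6.99, 5.81 and 6.04 against 5.44, 4.38 and 4.44 (-1.58 ± 0.29; adjusted p = 8.3e-05), and its other probe sets fell by 0.48 and 0.70 (adjusted p over all probe sets 0.00825 and 0.000409). Masp2, the related protease, missed the threshold on its main probe set (-0.46 ± 0.23, adjusted p = 0.133). Another of its probe sets fell by 0.69 (adjusted p over all probe sets 0.00803), and the dimmest changed by -0.08 (0.851).

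C9, which polymerises to form the pore, read 11.40, 11.53, 11.37, 11.52 and 11.296 in corn oil and 10.36, 9.52 and 9.69 after CPA (-1.57 ± 0.14; adjusted p = 4.77e-09). C1s, the protease of the C1 complex that cleaves C4 and C2, read 10.88, 11.03, 10.97, 10.95 and 10.94 against 9.77, 9.57 and 9.94 (-1.20 ± 0.11; adjusted p = 4.75e-09). For C9 and C1s the CPA arrays were all lower than any oil array. C1r, the partner of C1s, fell by 0.63, and C3, the central component, by 0.68. The pore components C8a and C8b fell by 0.97 and 0.87, and C6 by 0.74 (adjusted p = 0.039). C6 lost its call in 6 of 18 other fits, among them those without replicate 1, 4 or 5 of corn oil or replicate 1 or 3 of CPA. The inhibitors fell as well: C4bpa, a chain of the C4b-binding protein, by 1.03, factor I (Cfi) by 0.98, and Serping1 by 0.91; C4bpb missed the threshold at -0.51 (adjusted p = 0.0512). Of the 4 probe sets that name both C2 and Cfb, all fell, by 1.47, 0.84, 0.78 and 0.73 (adjusted p over all probe sets at most 0.00223).

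Coagulation and fibrinolysis genes fell without exception among the 12 measured. Plg, plasminogen, the precursor of the clot-dissolving plasmin, read 11.69, 11.74, 11.68, 11.78 and 11.71 in corn oil and 10.47, 9.88 and 10.41 after CPA (-1.47 ± 0.18; adjusted p = 4.79e-07). F10, the protease that converts prothrombin to thrombin, read 10.43, 10.59, 10.45, 10.68 and 10.77 against 9.70, 8.84 and 9.23 (-1.33 ± 0.14; adjusted p = 7.08e-08). Both genes were lower on all 3 CPA arrays than on any oil array. F5, the cofactor of the F10 product, read 9.50, 9.44, 9.43, 9.57 and 9.67 against 8.41, 7.85 and 8.39 (-1.31 ± 0.24; adjusted p = 9.29e-05). F12, the contact-phase protease, read 10.62, 10.66, 10.69, 10.76 and 10.84 against 9.69, 9.24 and 9.57 (-1.21 ± 0.14; adjusted p = 2e-07). The groups of F5 and F12 did not overlap either.

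On their main probe sets, the other coagulation genes fell by less than 1 log2 unit. Prothrombin (F2) fell by 0.94 and factor IX (F9) by 0.92. The fibrinogen chains Fga, Fgb and Fgg, the substrate of thrombin, fell by 0.73, 0.59 and 0.62. A dimmer probe set of Fga fell further, by 1.48 (adjusted p over all probe sets 4.6e-07). The anticoagulants fell by 0.73 for Proc, 0.53 for Serpind1 (heparin cofactor II) and 0.33 for Serpinc1 (antithrombin, a call lost without replicate 2 of CPA). The probe set shared by Kng1, Kng2 and Kng2l1, the kininogens of the contact system, fell by 0.94 (adjusted p over all probe sets 4.79e-06).

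Marker genes of several cell types were read on the same arrays. At 24 h the hepatocyte marker mean in HC was 11.51 to 11.70 after CPA and 11.68 to 11.86 in corn oil (two-sided exact permutation p = 0.071), with 5 of 16 markers called lower, 2 higher and a median change of -0.05. The cholangiocyte marker mean was 3.66 to 3.82 against 3.23 to 3.39 and the erythroid mean 3.271 to 3.299 against 3.301 to 3.873 (for each, exact permutation p = 0.036, the smallest that 3 against 5 arrays allow after rounding). The part of these markers in the result was not tested. The CPA arrays were not equal: 28 of the 36 genes had their highest CPA value on replicate 1 and 27 their lowest on replicate 2. Without each array in turn, limma called 31 or 32 of the 36.

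After 6 daily doses, fewer genes were lower and 1 was higher. At 6 d, 20 of 36 were lower in HC, where 9.29% of all genes were called lower, and Orm1 was higher, where 15% of all genes were called higher. All 20 had also been lower at 24 h. The lower genes were 4 of 10 acute phase proteins, 8 of 14 complement and 8 of 12 coagulation genes. The median change was -0.09 for acute phase proteins, -0.66 for complement and -0.66 for coagulation, against -0.01 over all genes. On 24 genes every CPA array lay below every oil array, against 18.8% of all genes.

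Orm1, which encodes alpha-1-acid glycoprotein, a drug-binding protein of plasma, was the member that rose. Orm1 read 11.74, 11.77 and 11.82 in corn oil and 12.65, 12.75 and 12.64 after CPA, 1.87-fold higher (0.90 ± 0.19; adjusted p = 0.000721). The groups were tight and far apart. Itih3, another inter-alpha-trypsin inhibitor heavy chain, read 11.86, 12.21 and 12.34 against 11.47, 10.94 and 10.96 (-1.01 ± 0.13; adjusted p = 2.5e-06). Its neighbour Itih4 read 12.04, 12.50 and 12.48 against 11.85, 11.40 and 11.27 (-0.83 ± 0.15; adjusted p = 0.000118). Neither heavy chain had overlapping groups, although the first oil and the first CPA array lay close together for Itih4.

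Cp read 12.21, 12.35 and 12.50 in corn oil at 6 d and 11.67, 11.32 and 11.42 after CPA (-0.88 ± 0.12; adjusted p = 4.44e-06). Its probe sets disagreed at this time. Another probe set fell by 0.96, whereas the third had fallen by 0.73 at 24 h and rose by 0.99 at 6 d (adjusted p over all probe sets 0.000134). With the mean of the 3 probe sets in place of the brightest, Cp changed by -0.28 and lost its call (adjusted p = 0.153).

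The largest change of any member at 6 d was that of C6, a component of the complement pore. C6 read 8.58, 8.96 and 8.59 in corn oil and 6.74, 5.98 and 5.33 after CPA, 6.46-fold lower (-2.69 ± 0.31; adjusted p = 2.51e-07). All CPA arrays lay more than 1 log2 unit below the oil arrays. C5 read 9.43, 10.07 and 10.23 against 8.77, 8.43 and 8.18 (-1.45 ± 0.23; adjusted p = 2.21e-05). C8b, the beta chain of C8, read 10.27, 10.43 and 10.39 against 9.79, 9.36 and 8.72 (-1.07 ± 0.21; adjusted p = 0.000303). C8a, its alpha chain, read 10.50, 10.83 and 10.70 against 9.83, 9.69 and 9.75 (-0.92 ± 0.17; adjusted p = 0.00019). None of these genes had overlapping groups. Of the 4 probe sets shared by C2 and Cfb, 1 was lower at 6 d (-0.74, adjusted p over all probe sets 0.00182), and the other three changed by -0.06, 0.05 and 0.02.

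In coagulation, F10 read 10.28, 10.65 and 10.54 in corn oil and 9.69, 9.12 and 9.11 after 6 doses (-1.18 ± 0.16; adjusted p = 3.31e-06). F12 read 10.10, 10.78 and 10.82 against 9.70, 9.40 and 9.43 (-1.05 ± 0.16; adjusted p = 1.34e-05). Both were lower on every CPA array. Plg read 11.52, 11.84 and 11.79 against 11.28, 10.62 and 10.61 (-0.88 ± 0.20; adjusted p = 0.00168). F9 read 10.80, 11.13 and 10.95 against 10.43, 10.18 and 10.14 (-0.71 ± 0.13; adjusted p = 0.000146). Plg and F9 also had groups that did not overlap, with the first CPA array nearest to the oil arrays.

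**Figure D3:**
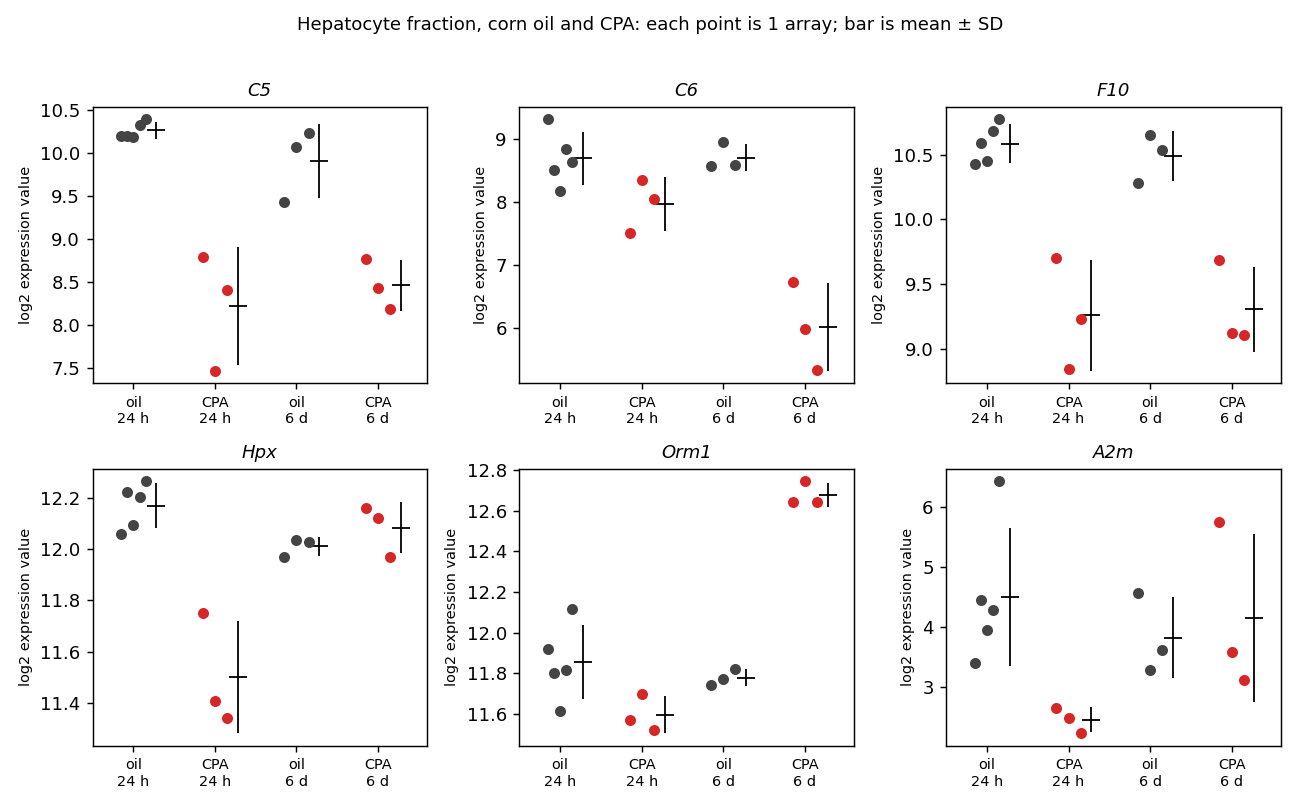
Log2 expression values of C5, C6, F10, Hpx, Orm1 and A2m in the HC fraction, 1 point per array, in corn oil (grey) and after CPA (red) at 24 h and 6 d, with the mean ± SD beside each group; the vertical axes differ and do not start at 0. C5 and F10 were low at both times, C6 fell furthest at 6 d, Hpx was low at 24 h only, and Orm1 rose to between 12.64 and 12.75 at 6 d.

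The 6 d arrays also differed in markers of other cells. In HC the Kupffer cell and macrophage marker mean was 6.19 to 6.44 after CPA at 6 d and 4.85 to 5.22 in corn oil, and the hepatocyte marker mean 11.36 to 11.49 against 11.78 to 11.86 (exact permutation p = 0.1 for each, the smallest that 3 against 3 arrays allow). Of the 12 macrophage markers 2 were called higher and 1 lower, with a median change of 1.38; of the 16 hepatocyte markers 8 were lower and 1 higher, median -0.38. The cholangiocyte marker mean was 4.07 to 4.48 against 3.395 to 3.433, with 2 of 5 markers called higher. The endothelial mean was 4.17 to 4.35 against 4.37 to 4.81, the B cell mean 2.84 to 3.06 against 3.10 to 3.20 and the platelet mean 3.61 to 4.13 against 3.55 to 3.58. These groups did not overlap either (exact permutation p = 0.1 for each). Their part in the 6 d result was not tested. Replicate 1 held the highest CPA value of 34 of the 36 genes, and replicate 1 of corn oil held the lowest oil value of 31. Leaving out each array in turn gave 19 to 26 calls. Ambp (-0.35, adjusted p = 0.0142) lost its call without replicate 2 or 3 of either group, and Fga (-0.47, adjusted p = 0.00873) without replicate 2 of either. The dimmer probe set of Fga changed by -0.21 at 6 d (adjusted p over all probe sets 0.569).

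The 24 h and 6 d responses to CPA were compared by testing the difference of the effects in HC. In 9 of 36 genes the change at 6 d lay above that at 24 h and in 1 it lay below, where 6.82% and 7.7% of all genes did. By role, 5 acute phase proteins and 4 complement genes lay above, C6 lay below, and 0 coagulation genes differed. Each time has its own corn oil group.

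Orm1 had a difference of 1.16 ± 0.25 between the times (adjusted p = 0.00259), going from -0.26 to 0.90. Hpx went from -0.67 to 0.07 (difference 0.74 ± 0.14; adjusted p = 0.000642), and Serpina3n from -1.04 to 0.11 (1.15 ± 0.29; adjusted p = 0.00836). Hpx read 11.97, 12.04 and 12.03 in corn oil at 6 d and 12.16, 12.12 and 11.97 after CPA, where the groups overlap, and 11.75, 11.41 and 11.34 after CPA at 24 h, all below the 24 h oil arrays (12.06 to 12.27). Hp and A2m had differences of 0.44 and 2.38, close to the threshold (adjusted p = 0.0305 and 0.0456), that of A2m resting on the 24 h CPA values near background. Over 9 alternatives and 14 fits that left out 1 array, A2m lost this call in 13, C3 in 11, Hp in 7 and C9 in 4. All of these genes lost it without replicate 2 of CPA at 24 h and without replicate 1 of CPA at 6 d. A2m read 5.75, 3.58 and 3.12 after CPA at 6 d against 4.57, 3.29 and 3.61 in oil, which overlap.

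Complement genes split. C1s, C4bpa, C9 and C3 fell less at 6 d than at 24 h, with differences of 0.75, 0.82, 0.77 and 0.41 (adjusted p from 0.00189 to 0.0405). C6 fell further, from -0.74 to -2.69 (difference -1.96 ± 0.41; adjusted p = 0.00189): it read 7.50, 8.35 and 8.05 after CPA at 24 h, against 6.74, 5.98 and 5.33 at 6 d. The 12 genes called lower at 24 h and not at 6 d were A2m, Hp, Hpx, Serpina3n, C1r, C3, C4bpa, Masp1, F5, Fgb, Fgg and Serpinc1, 4 of each role. Losing the call at 6 d is not a difference between the times for 6 of them, C1r, Masp1, F5, Fgb, Fgg and Serpinc1, since that test did not call them. The count of 10 fell to 6 without replicate 2 of CPA at 24 h or without replicate 1 of CPA at 6 d.

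**Figure D4:**
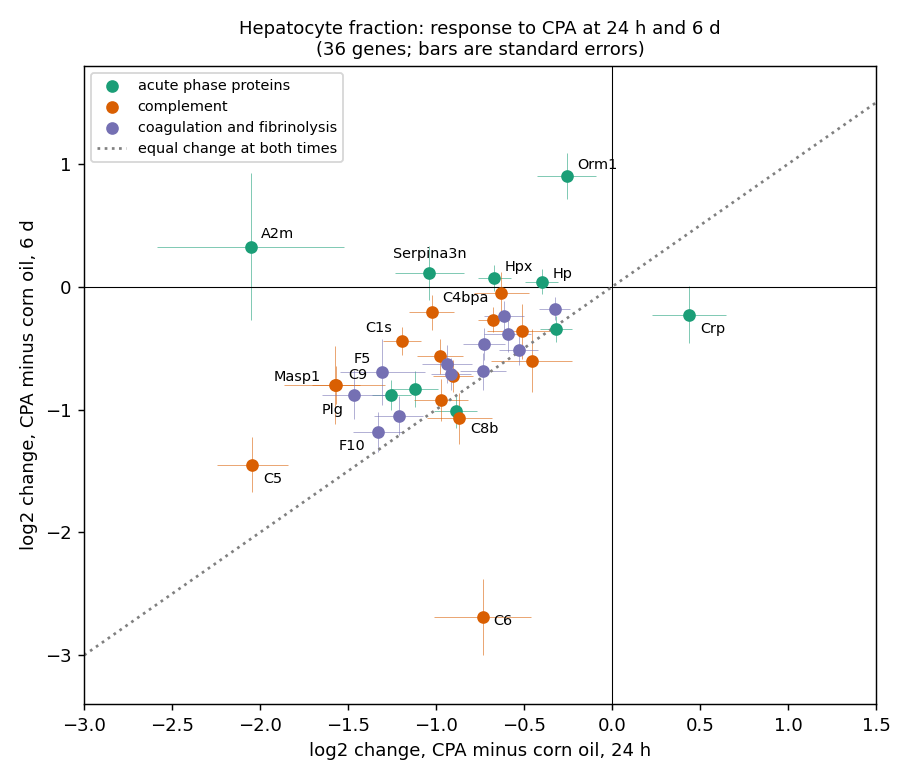
Log2 change after CPA in the HC fraction at 24 h (horizontal) and 6 d (vertical), 1 point per gene with standard errors, coloured by role; the dotted line marks equal change. Orm1, A2m, Serpina3n, Hpx and Hp lie above 0 on the vertical axis, C6 lies far below the line at -0.74 and -2.69, and the coagulation genes lie at or above the line.

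Phenobarbital gave no calls among these genes in the hepatocyte fraction. limma called 0 of 36 at 24 h, where 0.0774% of all genes were called, and 0 at 14 d, where 0.0633% were. At an unadjusted p under 0.05 there were 1 and 3 of the 36. The median change was -0.06 at 24 h and 0.02 at 14 d. Without the third replicates, whose sex label disagrees with their Y-linked transcript, the 24 h count was also 0. With the replicate number as a block, the 14 d count was 0 too.

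At 24 h the largest changes by role did not pass. Crp read 10.44, 10.48 and 10.54 in water and 10.76, 10.79 and 10.86 after PB (0.32 ± 0.24; adjusted p = 0.89). The groups did not overlap, but the difference was small. C6 read 9.67, 9.60 and 9.49 against 9.46, 8.72 and 8.94 (-0.55 ± 0.31; adjusted p = 0.799), with its groups apart. F9 read 11.17, 11.08 and 11.37 against 10.96, 11.09 and 11.22 (-0.12 ± 0.13; adjusted p = 0.962), and its groups overlapped. At 14 d Orm1 read 10.94, 10.89 and 11.87 in water and 11.55, 11.87 and 12.15 after PB (0.62 ± 0.19; adjusted p = 0.194), where the third water array lay among the PB arrays. C5 read 9.89, 10.06 and 9.65 against 9.54, 9.53 and 9.20 (-0.44 ± 0.23; adjusted p = 0.466). F5 read 9.90, 10.17 and 8.99 against 9.78, 9.53 and 8.49 (-0.42 ± 0.27; adjusted p = 0.592), and its groups overlapped. Without replicate 3 of water at 14 d, Crp, Masp2 and Orm1 were called, all higher after PB. The difference of the PB effect between 14 d and 24 h, which also differ in route, was called for 0 of 36 in HC (0.0352% of all genes; 1 of 36 at an unadjusted p under 0.05).

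In the mesenchymal fraction, these transcripts varied with the hepatocyte markers from array to array in the corn oil group at 24 h. In corn oil at 24 h, the hepatocyte marker mean was 6.55 on replicate 1, 8.82 on replicate 3, 9.36 on replicate 5, 9.55 on replicate 2 and 10.59 on replicate 4. On these arrays 32 of the 36 genes had their lowest value on replicate 1 and their highest on replicate 4, as 12.3% of all genes did. Fga rose from 6.05 to 10.11 between these arrays and the median of the 36 genes by 3.46. The exceptions were A2m, C1r, Masp1 and Serping1. A2m read 2.31 to 2.70 on these arrays, under the array medians, so its order cannot be read. Masp1 is given here by its main probe set, the 1 of its 3 that is higher in MC. Masp1 read 9.50 on replicate 1 and 7.63 on replicate 4, Serping1 10.59 and 9.94, and the stellate marker mean 6.18 and 5.00. The Kupffer cell and macrophage marker mean differed less, at 10.63 and 10.16, and the endothelial mean fell from 10.31 to 9.02. In the CO_Co group the order held at the low end only. There 30 of the 36 genes were lowest on replicate 1, which had the lowest hepatocyte marker mean (7.70). But 30 were highest on replicate 3 (8.89), whereas the marker mean was highest on replicate 2 (9.41).

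**Figure D5:**
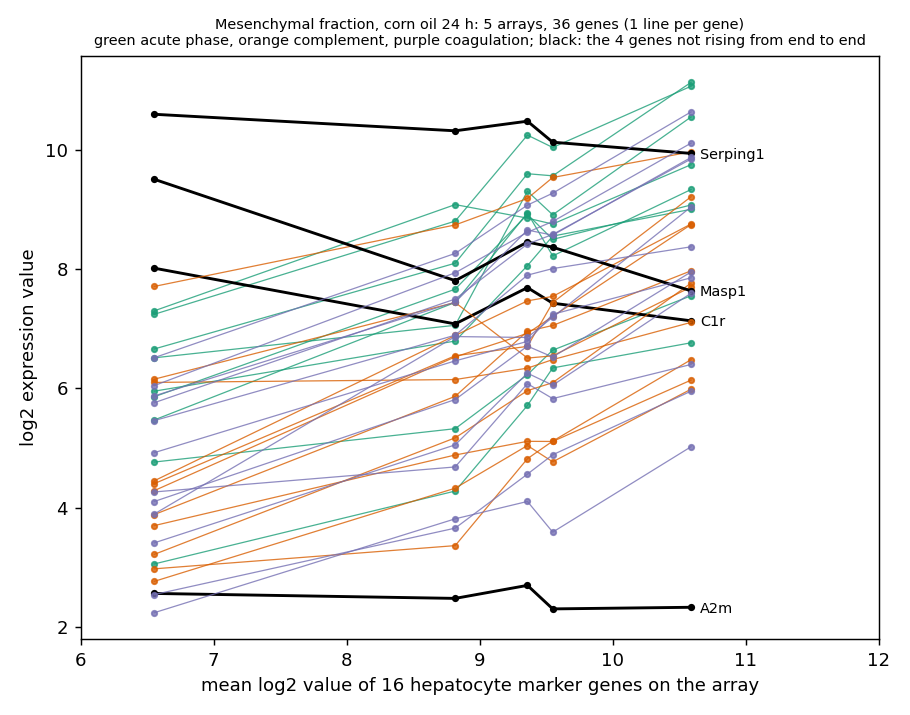
Log2 expression values of the 36 genes on the 5 MC corn oil arrays at 24 h (1 line per gene) against the mean log2 value of 16 hepatocyte markers on the same array. Between a marker mean of 6.55 and one of 10.59, 32 lines run from their lowest to their highest point, whereas Masp1 falls from 9.50 to 7.63.

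After PB in drinking water for 14 d, 7 of 36 genes were lower in MC, where 9.02% of all genes were called lower, and 0 were higher. They were 4 complement genes, C1s, C3, C8b and C9, and 3 coagulation genes, F2, Fga and Plg. The median change of the 36 was -1.80, against 0.02 over all genes, and 31 of the 36 had every PB array below every water array, against 17% of all genes. The hepatocyte marker mean fell from between 10.03 and 10.29 to between 7.86 and 9.11 (exact permutation p = 0.1, the smallest possible), with 5 of 16 markers called lower and a median of -1.96, and the macrophage marker mean was 10.58 to 10.73 against 9.45 to 10.36, with 4 of 12 called higher. The endothelial mean was 9.85 to 10.09 against 9.17 to 9.37 (exact permutation p = 0.1), with 2 of 10 called higher, and 2 of 4 erythroid markers were called lower (median -1.52). In a fit that held this hepatocyte mean as a covariate, 0 of the 36 genes were called and their median change was -0.08. C1s kept -0.98 of its change in that fit (adjusted p = 0.174). The marker mean does not overlap between the PB and water arrays and the treatment cannot be told apart from it, so the part of these markers in the result was not tested.

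C9 read 8.87, 8.56 and 8.09 in water and 6.49, 7.26 and 4.80 after PB (-2.32 ± 0.78; adjusted p = 0.0413). C1s read 7.88, 7.20 and 7.25 against 5.73, 6.12 and 4.86 (-1.87 ± 0.48; adjusted p = 0.0132). C3 read 9.73, 9.41 and 9.48 against 7.84, 8.57 and 7.14 (-1.70 ± 0.58; adjusted p = 0.0431). In each case all 3 PB arrays were lower than the water arrays and replicate 3 was lowest. C8b read 7.18, 6.08 and 6.04 against 4.33, 5.71 and 3.83 (-1.81 ± 0.61; adjusted p = 0.042). Its PB replicate 2 came close to the water arrays.

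Fga read 9.63, 9.58 and 9.40 in water and 7.25, 8.27 and 6.68 after PB (-2.14 ± 0.75; adjusted p = 0.0483). Plg read 8.97, 8.47 and 8.27 against 6.74, 7.65 and 5.64 (-1.89 ± 0.66; adjusted p = 0.0484). F2 read 8.71, 8.50 and 8.41 against 6.70, 7.50 and 5.82 (-1.87 ± 0.64; adjusted p = 0.0449). The order of the PB arrays was the same in all 3 genes, with replicate 2 highest, as it was for 35 of the 36 genes, and replicate 3 lowest, as for 31. No acute phase gene was called; the largest change was that of Itih3, which read 9.06, 8.98 and 9.21 against 7.08, 8.12 and 6.28 (-1.92 ± 0.72; adjusted p = 0.0629). C6 (0.06) and Serping1 (0.42 ± 0.26, adjusted p = 0.244) were the members with a change above 0.

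The count in MC at 14 d depended on single arrays. It was 0 without replicate 1 of water, without replicate 1 of PB or without replicate 3 of PB, 1 (C1s) without replicate 2 of water, 3 without replicate 3 of water and 10 without replicate 2 of PB. Same-numbered PB and water arrays at 14 d deviated together, and with the number as a block 29 of 36 genes were called lower, beside 25.6% of all genes. After PB at 24 h, limma called 0 of 36 in MC (0% of all genes; 0 of 36 at an unadjusted p under 0.05). Hpx read 9.08, 9.19 and 8.23 in water and 7.74, 8.17 and 7.68 after PB (-0.97 ± 0.65; adjusted p = 0.999). C1s read 8.02, 8.01 and 7.09 against 6.74, 6.74 and 6.80 (-0.95 ± 0.48; adjusted p = 0.999), and Fga read 9.86, 9.80 and 9.38 against 8.42, 9.01 and 8.84 (-0.92 ± 0.75; adjusted p = 0.999). The groups of these genes did not overlap, but the third water array lay close to the PB arrays.

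CPA gave no calls among the 36 genes in MC. limma called 0 at 24 h, where 2.54% of all genes were called, and 0 at 6 d, where 2.23% were; 1 and 2 of the 36 had an unadjusted p under 0.05. Crp, whose product binds phosphocholine on damaged cells and microbes, came nearest at 24 h. It read 4.77, 6.64, 5.33, 7.55 and 6.23 in corn oil and 6.96, 8.42 and 8.46 after CPA (1.84 ± 0.52; adjusted p = 0.0586), and its groups overlapped through 1 CPA array. Without replicate 4 of corn oil or replicate 1 of CPA, Crp was called higher. Proc read 2.55, 4.89, 3.66, 5.95 and 4.56 in corn oil against 4.31, 5.95 and 6.80 (1.36 ± 0.71; adjusted p = 0.415). C8a read 3.22, 6.10, 5.17, 7.76 and 5.96 against 5.43, 6.40 and 7.65 (0.85 ± 0.72; adjusted p = 0.688). The corn oil values of C8a spanned all its CPA values.

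At 6 d Orm1 read 8.42, 7.75 and 9.09 in corn oil and 9.72, 9.83 and 10.76 after CPA in MC (1.68 ± 0.77; adjusted p = 0.458). Its groups did not overlap, as in HC, but the arrays spread more. C6 read 6.28, 7.07 and 7.62 against 5.49, 5.60 and 6.85 (-1.01 ± 0.52; adjusted p = 0.564). F9 read 7.78, 6.41 and 7.11 against 5.99, 5.83 and 7.93 (-0.52 ± 0.84; adjusted p = 0.954). Both C6 and F9 had overlapping groups. Serping1 came nearest to the threshold, at 9.33, 10.47 and 10.33 against 8.89, 8.83 and 9.78 (-0.88 ± 0.26; adjusted p = 0.0912). Without replicate 1 of corn oil or replicate 3 of CPA at 6 d, Serping1 was called. The difference of effects between the times was called for 0 of 36 genes in MC for CPA (0.506% of all genes) and for PB (0.00703%), with 0 and 1 of the 36 at an unadjusted p under 0.05 in limma. The hepatocyte marker mean in MC was 8.65 to 10.62 after CPA at 24 h against 6.55 to 10.59 in oil, and 8.72 to 10.04 against 8.79 to 9.86 at 6 d.

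Whether the fractions differed in response was tested as the effect in HC minus the effect in MC. For PB at 24 h 0 of 36 genes differed (0% of all genes; 0 at an unadjusted p under 0.05). For PB at 14 d 5 genes differed, where 10.1% of all genes did: C1s (1.76 ± 0.50; adjusted p = 0.0197), C8b (1.94 ± 0.66; 0.0497), Masp2 (2.30 ± 0.77; 0.0467), F2 (2.08 ± 0.67; 0.0402) and Plg (2.11 ± 0.71; 0.0474). For C1s the effect was -0.12 in HC and -1.87 in MC, for C8b 0.13 and -1.81, and for Masp2 0.43 and -1.87; F2 and Plg went from 0.21 and 0.22 in HC to -1.87 and -1.89 in MC. Another probe set of Masp2 changed by 0.28 in HC and -1.28 in MC, but its last went the other way, by -0.67 and 0.12. With the mean of a gene's probe sets Masp2 differed by 1.03 (adjusted p = 0.136). Masp2, C8b and Plg lost their calls in that fit (adjusted p = 0.0534 for C8b and 0.051 for Plg). With the replicate block 27 genes differed, beside 16.5% of all genes. The count was 0 without replicate 1 of MC water or replicate 3 of MC PB, 1 without replicate 1 or 2 of HC water, replicate 2 or 3 of HC PB or replicate 1 of MC PB, 3 without replicate 2 of MC water and 14 without replicate 2 of MC PB.

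For CPA at 24 h 3 genes differed between the fractions, where 8.43% of all genes did: A2m (-1.93 ± 0.58; adjusted p = 0.0276), F5 (-2.04 ± 0.63; 0.0326) and Plg (-1.94 ± 0.63; 0.0457). A2m changed by -2.06 in HC and by -0.13 in MC, where it read between 2.16 and 2.70 on every array with oil (CO_Co included) or CPA at 24 h. That is under the array medians, so a fall of A2m in MC could not have been measured, and its difference does not compare the responses. F5 and Plg fell by 1.31 and 1.47 in HC and changed by 0.73 and 0.47 in MC. With the replicate number as a block within each fraction 23 genes differed, beside 10.4% of all genes: F5 and Plg were among them and A2m was not (-1.39, adjusted p = 0.0987). That block joins CPA and oil arrays of the same number. These did not deviate together in every pair (correlations -0.128 to 0.182 in HC and -0.091 to 0.679 in MC). The count of 23 thus rests on a pairing that the arrays do not show, and HC and MC arrays were not paired in it. The count was 0 without replicate 2 of HC CPA, 1 without replicate 5 of HC oil, replicate 1 of MC oil, replicate 3 of HC CPA or replicate 3 of MC CPA, 6 without replicate 1 of MC CPA and 9 without replicate 4 of MC oil. For CPA at 6 d 0 of 36 differed (4.58% of all genes), and 1 of 36, C6, had an unadjusted p under 0.05.

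Genes that act on or beside these proteins were taken from fixed lists. Of 18 measured genes of interleukin 6 and interleukin 1 signalling and liver transcription factors, 5 were lower and 1 higher in HC after CPA at 24 h, and 7 lower and 1 higher at 6 d. Over all genes the shares were 11.7% lower and 22.5% higher at 24 h, and 9.29% lower and 15% higher at 6 d. The receptors were among the lower genes: Il1rap, the accessory chain of the interleukin 1 receptor, changed by -1.69 and -1.12 at the respective times, Il1r1 by -1.33 and -1.55, and Il6r by -1.32 and -1.64, and all of these were called (adjusted p at most 0.00801). Il6st, the signalling chain gp130, fell by 0.62 at 24 h. Cebpd, a C/EBP factor induced in the acute phase, rose by 0.76 at 24 h; at 6 d Cebpa fell by 0.77 and Nfkbia, the inhibitor of NF-kB, rose by 0.84. Il6 and Tnf lay at means of 1.61 to 1.86 in these groups, and neither was called. The list medians were -0.03 and -0.18, against -0.01 and -0.01 over all genes.

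Of 15 other acute phase genes, 8 were lower and 1 higher in HC after CPA at 24 h, and 4 lower and 2 higher at 6 d (list medians -0.81 and -0.43), beside 11.7%, 22.5%, 9.29% and 15% of all genes in that order. Itih1 fell by 1.47 and 1.04, and Fgl1, a fibrinogen-like protein of hepatocytes, by 1.42 and 1.68. Itih2 and fibronectin (Fn1) fell by 1.22 and 1.13 at 24 h, and serum amyloid P (Apcs) by 1.45 at 6 d. Hamp, the iron hormone hepcidin, rose by 0.89 at 24 h; it was also the gene of this list that was called after PB at 24 h, 1.23 ± 0.21 higher (adjusted p = 0.00973). At 6 d Lbp, the lipopolysaccharide-binding protein, rose by 1.34 and Lcn2, lipocalin 2, by 1.22. Tat, tyrosine aminotransferase, fell by 1.26 at 6 d.

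Of 15 other complement genes, 3 were lower in HC after CPA at 24 h, C8g, Vtn and Clu, by 0.91, 0.76 and 0.46, where 11.7% of all genes were lower. At 6 d 2 were lower, C8g by 1.40 and Vtn, vitronectin, by 0.87, and 5 were higher, among them Cr1l (1.40), properdin (Cfp, 1.15), the C5a receptor C5ar1 (1.05) and Clu (0.94), where 9.29% of all genes were lower and 15% higher. The macrophage marker mean given above was higher on the same 6 d arrays. The list medians were -0.23 and 0.89.

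Of 19 other coagulation genes, 8 were lower and 2 higher in HC after CPA at 24 h, and 3 lower and 7 higher at 6 d (list medians -0.11 and 0.00), where 11.7% and 22.5% of all genes were at 24 h, and 9.29% and 15% at 6 d. Ggcx, the carboxylase that vitamin K serves, fell by 1.33 at 24 h and rose by 0.61 at 6 d, and Tfpi, the tissue factor pathway inhibitor, fell by 1.31 and then rose by 0.74. Cpb2, a carboxypeptidase that slows fibrinolysis, fell by 1.19 at 24 h. Plat, the tissue plasminogen activator, rose by 1.39 and 2.27. The protein C receptor Procr rose by 3.36 at 6 d thrombomodulin (Thbd) by 1.53 and Plau, urokinase, by 1.18.

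In MC after PB at 14 d, 4 of the 18 signalling genes were higher: Tnf (1.84), Il6r (0.79), Il6st (0.77) and Jak1 (0.65), where 9.36% of all genes were higher. Of the other acute phase genes 4 were lower, Itih2 (-2.61), Itih1 (-2.02), Mbl1 (-1.89) and Il1rn (-0.77), where 9.02% of all genes were lower. Of the other complement genes Cd46 was higher (0.43), and of the other coagulation genes F8 and Plau were (1.12 and 1.12). These are the same arrays on which the hepatocyte marker mean was lower and the macrophage marker mean higher. In MC after CPA at 6 d, Il1rn (1.19) and Plat (2.09) were higher and Cfd (-1.53) lower, where 2.04% of all genes were higher and 0.19% lower.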

How the data were processed

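RNA of 60 samples was hybridised to Affymetrix Rat 230 2.0 arrays from 250 ng each, per the labels' protocols. The authors deposited log2 values made with RMA, per the submitters' processing notes, with the version not given in the sources used here. The table held 31042 probe sets: 20826 with 1 gene symbol in the array annotation, 436 with several and 9780 with none, and 20758 of the first were matched to RefSeq by identifier. The probe sets with 1 symbol, matched or not, gave the 14217 genes tested. Log2 values have no read depth, and the number of arrays limits the precision. RMA brings all arrays to 1 distribution, so a shift shared by all genes would not show. Probe sets near the top of the scale understate a difference.

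limma 3.58.1 (R 4.3.3) was fitted with 1 mean per group to the 30 arrays of a fraction, or to all 60 for comparisons between fractions, with Benjamini-Hochberg adjustment over all genes, and was tested on simulated data. Marker means were compared with two-sided exact permutation tests (scipy 1.17.1, Python 3.11.15, pandas 2.3.3; figures with matplotlib 3.10.9). The genes and lists were chosen with earlier results of these data known. Array values are given for up to 4 called genes per role with the largest change, and for the largest where a role has no call; of other lists up to 4 called genes are named. Il6, Tnf, Il6st, Cebpa, Lcn2 and Hamp at CPA were named after their values were seen, as were the members nearest to a threshold.

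Replicate numbers are shared between groups. Same-numbered arrays deviated together in every pair for PB at 14 d (correlations 0.2 to 0.459 in HC and 0.255 to 0.644 in MC) and for HC and MC in corn oil at 24 h (0.137 to 0.288). They also did so for PB at 24 h (0.096 to 0.376 in HC and 0.059 to 0.464 in MC) and for HC and MC in water (0.098 to 0.261). For CPA some pairs had negative correlations in both fractions at both times. The block was run for every comparison and is not taken as a pairing for CPA. Alternatives were a sex term, the replicate block, array weights, the mean of a gene's probe sets, a filter on group means above 5, quantile normalization, centring arrays on the median, only the groups compared, a trended robust prior, both corn oil groups as control, the hepatocyte marker mean as a covariate, and leaving out each array.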

Additional observations from a re-analysis of the deposited data

Results flagged for a closer look

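In the CO_Co group of HC, 3 genes had 1 array far from the other 3 by Dixon's criterion, which chance meets in about 1 in 20 groups. It was applied to each of the 36 genes in every group with 4 or 5 arrays, so chance alone would give several such arrays. Hp read 12.589 on replicate 1, against 12.558, 12.56 and 12.56. C9 read 11.629 on replicate 1, against 11.488, 11.495 and 11.475. F5 read 9.064 on replicate 2, against 9.551, 9.48 and 9.54.

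The effect of CPA in HC differed between 6 d and 24 h by a test of the difference itself in 10 of 36 genes (27.8%, beside 14.5% of all genes). The differences, 6 d minus 24 h, were 2.381 for A2m, 1.153 for Serpina3n, 0.743 for Hpx, 0.441 for Hp and 1.159 for Orm1 among the acute phase proteins. Among complement genes they were 0.753 for C1s, 0.407 for C3, 0.816 for C4bpa, 0.771 for C9 and -1.956 for C6. A2m lost its call in 13 other fits, C3 in 11, Hp in 7 and C9 in 4.

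The effect of PB at 14 d differed between the fractions in 5 of 36 genes, beside 10.1% of all genes. The differences, HC minus MC, were 1.757 for C1s, 1.944 for C8b, 2.303 for Masp2, 2.079 for F2 and 2.107 for Plg. Plg lost its call in 11 other fits, C8b in 10, Masp2 in 9, F2 in 8 and C1s in 2. The effect of CPA at 24 h differed between the fractions in 3 of 36 (8.33%, beside 8.43% of all genes), by -1.93 for A2m, -2.035 for F5 and -1.937 for Plg. A2m lay near background in MC with and without CPA, so its value does not compare the responses, and near background in HC after CPA at 24 h.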

How the results depend on the processing

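The counts of called genes in HC after CPA ran from 31 to 35 at 24 h and from 21 to 30 at 6 d over the alternatives that kept all arrays, and those of HC against MC from 34 to 36 in corn oil and 35 to 36 in water. Single calls were lost in 9 of 576 refits of the genes called at 24 h (C6 in 6, Serpinc1 in 2, Ambp in 1) and in 10 of 315 at 6 d (Ambp in 6, Fga in 3, Cp in 1). Masp1 turned to 0.161, HC minus MC in water, with the mean of its probe sets (adjusted p = 0.368). Centring each array on its median moved the median of all genes to -0.15 for CPA at 24 h and -0.19 at 6 d in HC, with the members' medians at -1.04 and -0.77 on that scale. In MC after PB at 14 d the count of 7 became 29 with the replicate block, 18 with array weights, 13 with the filter, 12 with centring, 25 with only the groups compared and 0 with the marker covariate. For the difference of the PB effect at 14 d between fractions, 5 became 27 (block), 13 (weights), 3 (mean of probe sets), 8 (filter) and 21 (groups compared). For CPA at 24 h, 3 became 23 (block), 14 (weights), 5 (filter), 5 (centring) and 0 (groups compared), and for CPA at 6 d 0 became 1, C6, with the block or weights. Counts of 0 rose in MC after CPA at 24 h to 4 with the block, 1 (Crp) with weights, the filter or both oil groups, and 3 with the covariate, and at 6 d to 3 with weights, 1 (Serping1) with centring and 3 with the covariate. Weights also gave 1 (Orm1) for PB at 14 d in HC, 1 (C1s) for PB at 24 h in MC and 3 for the time difference of CPA in MC. The cause was not tested. With the block, the share of all genes called was also higher for PB at 14 d in MC. The same held for the differences between fractions for PB at 14 d and CPA at 24 h. The shares of the other fits are not given here, so these changes in count are not a result about the members. Leaving out 1 array at a time gave 0 to 3 for PB at 14 d in HC, 0 to 10 in MC, 0 to 1 for CPA in MC at 24 h and at 6 d, 0 to 14 for the PB and 0 to 9 for the CPA difference between fractions at 14 d and 24 h, 6 to 13 for the CPA time difference in HC and 0 to 2 for that of PB. For CPA, where same-numbered arrays did not deviate together in every pair, the block gave 33 calls at 24 h in HC, 31 of them shared with the 32. All alternatives listed were run.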
